A study of Homo sapiens with 73 samples.

Results

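The change from the end of time point 1 to the end of time point 8 was followed in 5 treated lineages of CHLA-9, an established Ewing sarcoma cell line with the EWSR1-FLI1 fusion gene. The libraries were those of lineages R2, R3, R4, R6 and R7 at both time points, paired by lineage number, which gave 10 of the 73 libraries of the series. The experiment split 1 treatment-naive line into 7 lineages (R1 to R7) that received chemotherapy and 3 (R8 to R10) that received DMSO, the drug solvent, and sampled them repeatedly alongside 1 library of the parental line. Treated lineages took VDC (vincristine, doxorubicin and cyclophosphamide) at odd time points and EC (etoposide and cyclophosphamide) at even ones, each for 5 days at the dose giving 70% effect, and RNA was taken after regrowth in drug-free medium. A library of time point 1 therefore follows 1 course of VDC, and a library of time point 8 follows 4 courses of VDC and 4 of EC, the last being EC. Time in culture, the number of courses and the kind of the last course differ together between these groups and cannot be told apart within the treated lineages. The DMSO lineages at the same time points passed through the same schedule without the drugs. All libraries come from 1 cell line, so the lineages measure how repeatable the change was in this line.

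Ewing sarcoma is driven by a fusion protein, here EWSR1-FLI1, that joins part of an RNA-binding protein to the DNA-binding domain of an ETS transcription factor. It activates genes through GGAA repeats and represses others, many of which belong to mesenchymal, matrix and adhesion programmes, so Ewing cells can shift between a less and a more mesenchymal state. Vincristine blocks tubulin polymers, doxorubicin and etoposide trap topoisomerase II on DNA, and cyclophosphamide, once activated by metabolism, crosslinks DNA. Drug-induced DNA breaks activate p53, which raises genes of cell cycle arrest and apoptosis.

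Expression was deposited as quantile-normalized counts for 36233 genes, and library depth is unknown. Values below are on that scale, and changes are differences of log2(value + 1), which understate the change of genes with low values. Genes with a mean of at least 10 over the 10 libraries were tested, 14518 in all. Mitochondrially encoded genes took 1.81% to 2.05% of the summed values at time point 1 and 0.629% to 1.05% at time point 8, without overlap, and 14792 to 15166 against 13214 to 14980 genes lay at the lowest value of their library. The part of either in the results below was not tested. EWSR1, FLI1 and the fusion target NR0B1 were present in all 10 libraries, while the surface marker CD99 lay at or below 1.25 in each. At time point 1, 2 libraries stood apart from their arm. Among DMSO lineages, R8 had CDKN1A at 1229 and a mitochondrial share of 2.19%, near the treated libraries, whereas R9 and R10 had CDKN1A at 53 and 71.2 and shares of 1.40% and 1.40%. Treated R1, which is outside the 5 pairs, had a share of 0.927%, close to the 0.933% of the parental library, and CAV1 at 2711, against 3200.1 in the parental line and at most 626 in the 5 paired lineages. Whether these 2 libraries were exchanged or handled differently was not tested. The labels were kept as given. Counts of called genes that rest on either are given without it too. Fitted changes and intervals of single genes that rest on either include it.

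Between time points 1 and 8 the treated lineages gained RNA for matrix, adhesion and receptor genes and lost RNA for p53 targets, homologous recombination genes and mitochondrially encoded genes. By median, the matrix, adhesion, receptor and mitochondrially encoded lists moved the same way in all 3 DMSO lineages. With limma (lineage as a block, Benjamini-Hochberg adjustment, adjusted p under 0.05), 8398 of 14518 genes passed (57.8%), 3991 higher (27.5%) and 4407 lower (30.4%) at time point 8. A log2 change of at least 1 was reached by 992 of the higher genes (6.83%) and 1110 of the lower ones (7.65%). A change of at least 2 was reached by 496 higher genes (3.42%) but 80 lower ones (0.551%). In 2978 genes (20.5%) all 5 values at time point 8 lay above all 5 at time point 1, and in 3315 (22.8%) they lay below. Of the higher genes, 407 had a mean under 10 at time point 1 and so entered the test through their late values. Likewise, 260 of the lower genes had a mean under 10 at time point 8. The part of such genes in the uneven counts at a change of at least 2 was not tested.

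R5 and R1 were compared with the paired libraries as a description only, because the libraries they are set against also made the calls, which raises the shares of called genes. R5 had no library at time point 1 but one at time point 8, and it lay above all 5 early values for 2968 of the 3991 higher genes (74.4%, against 34.0% of all tested genes) and below them for 3381 of the 4407 lower genes (76.7%, against 39.4%). R1 at time point 1 lay below all 5 late values for 59.6% of the higher genes (23.0% of all tested) and above them for 60.6% of the lower genes (30.9%).

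The 12 largest rises among protein-coding genes that rose in all 5 lineages were POSTN, EGFR, TFPI2, HTRA1, COL8A1, GPRC5A, PTX3, L1CAM, MYOF, ROR2, ANXA5 and CRYAB. Most encode proteins of the matrix, the cell surface or the secreted fraction. POSTN (periostin, a matrix protein that binds integrins; chromosome 13, 37562585 to 37598768, RefSeq GRCh38.p14) was 2.24, 0.0132, 1.01, 0.0129 and 0.0144 in R2, R3, R4, R6 and R7 at time point 1 and 182, 346, 240.1, 225 and 1039.5 at time point 8. R3, R6 and R7 had started at the lowest value of their library, every late value lay above every early one, and R7 was the highest. The change was 7.79 ± 0.496 (SE) in log2 units (limma, Benjamini-Hochberg adjusted p = 3.42e-06). The parental library was also at its lowest value, and R5 at time point 8 was at 80.6.

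EGFR, the receptor of epidermal growth factor (chromosome 7, 55019017 to 55211628), was 0.0176, 0.0132, 8.58, 0.0129 and 0.0144 in the same order at time point 1 and 275, 264, 204, 487 and 253 at time point 8. R4 was the only early library with a clear signal, and its rise was the smallest. The change was 7.48 ± 0.543 (SE) (limma adjusted p = 6.15e-06). TFPI2, an inhibitor of matrix-degrading proteases, lay at the lowest value of all 5 early libraries and reached 166, 125, 63.3, 27.4 and 106. COL8A1, a short-chain collagen, PTX3, a pentraxin of innate immunity, and ROR2, a receptor for WNT5A, were likewise at the lowest value in all 5 libraries of time point 1, so no fold is given for these 4 genes. At time point 8 COL8A1 lay between 39.8 and 118, PTX3 between 47.6 and 95.7 and ROR2 between 43.3 and 145, and all passed (limma adjusted p = 1.69e-06, 1.65e-06 and 3.34e-06). These 4 genes, POSTN and EGFR entered the test only through their late values. The p-values of such genes are a description and no separate support for a rise.

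HTRA1, a secreted serine protease, had measurable early values of 3.77, 27.2, 9.01, 17.6 and 6.08 and late values of 486, 1070.5, 457, 1168 and 1789.8, a change of 6.28 ± 0.335 (SE). L1CAM, a neural adhesion molecule, went from 3.27, 8.00, 4.72, 7.60 and 0.613 to 396, 272, 152, 436 and 457. ANXA5, a calcium-dependent phospholipid-binding protein, went from 4.29, 5.09, 2.86, 8.62 and 1.15 to 311, 314, 149, 365 and 282 and changed by 5.83 ± 0.274 (SE). None of these 3 genes had overlapping groups. In the parental library HTRA1 was at 125 and ANXA5 at 54.6, above every treated library of time point 1 and below every one of time point 8. Of non-coding genes, LINC00632 (4.05) and LINC01234 (3.17) rose most.

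**Figure D1:**
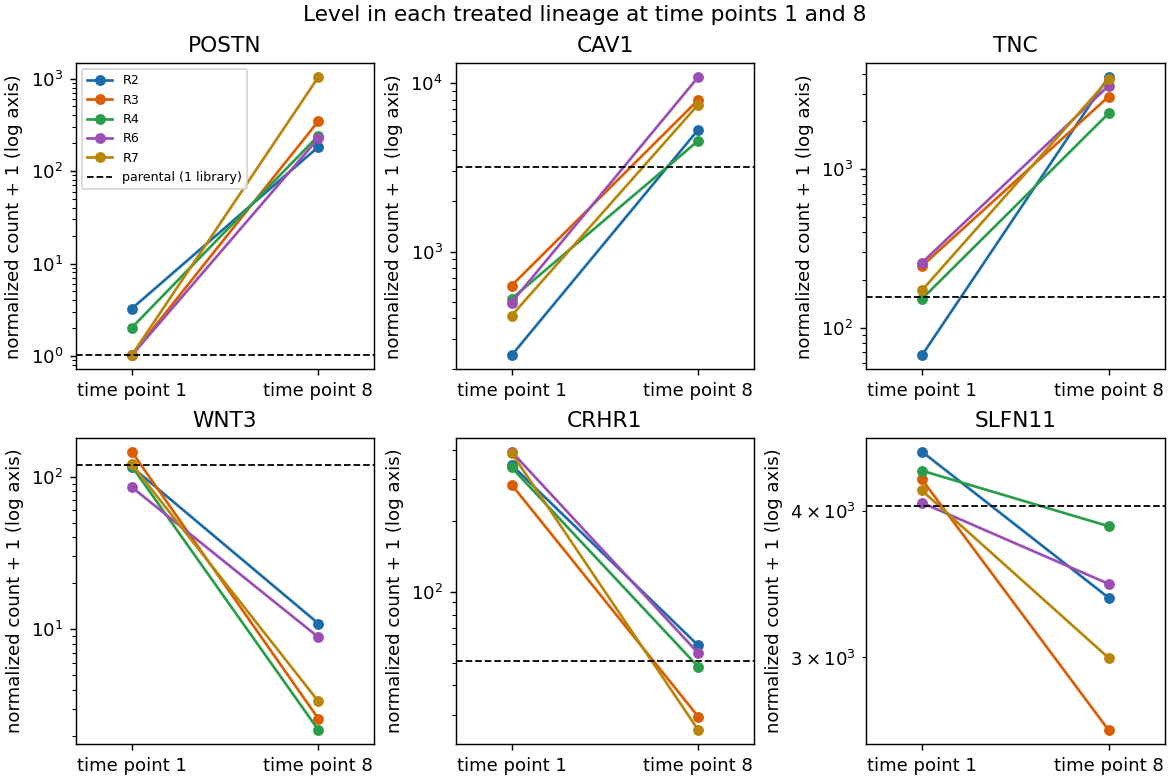
Normalized count plus 1 on a log axis for POSTN, CAV1, TNC, WNT3, CRHR1 and SLFN11, 1 line per treated lineage from time point 1 to time point 8, with the single parental library as a dashed line. In each panel the 5 late values lie on 1 side of the 5 early values, and for CAV1 the parental value of 3200.1 lies between the groups.

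The 12 largest falls were smaller than the 12 largest rises. They included WNT3, SMARCA1, LCN12, NOXA1, CRHR1, ZMAT1, SLC22A16, IL16, CCNA1, SPPL2C and WDR97. WNT3, a secreted WNT ligand (chromosome 17, 46762506 to 46818692), was 115, 145, 116, 84.3 and 119.8 at time point 1 and 9.90, 1.59, 1.19, 7.87 and 2.37 at time point 8, with 118 in the parental line. The early libraries sat near the parental level and the late ones far below it, a change of -4.68 ± 0.413 (SE) (limma adjusted p = 1.70e-05). SMARCA1, an ATPase of ISWI chromatin remodelling complexes, fell from 71.1, 51.5, 77.6, 60.2 and 45.5 to 5.06, 6.98, 2.46, 10.7 and 0.0733, lowest in R7, although the parental line was at 189.

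CRHR1, a receptor for corticotropin-releasing hormone (chromosome 17, 45784320 to 45835828), was 344, 284, 336, 392 and 387 early and 58.1, 28.5, 46.9, 53.8 and 24.9 late. Its parental value of 49.6 lay within the late range, so here the early libraries were the ones away from the parental line. The change was -3.08 ± 0.190 (SE) (limma adjusted p = 3.11e-06). NOXA1, an activator of NADPH oxidase, fell by 3.10 log2 units and IL16, a cytokine, by 2.89. Among non-coding genes, MIR34AHG, the host transcript of the p53-induced miR-34a, fell from 399, 455, 397, 436 and 469 to 20.8, 17.9, 21.7, 166 and 35.3, with R6 well above the other late libraries. Its neighbour LNCTAM34A fell with it (-3.39), and the annotated ends of the pair overlap, so reads could not be assigned to 1 of them with certainty.

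Genes that EWSR1-FLI1 represses rose, with 18 of 22 tested members higher and 0 lower (median log2 change 1.75, against -0.024 over all tested genes). In DMSO lineages R8, R9 and R10 the medians of this list were 0.86, 1.08 and 1.47. For this list and those below, the shares over all tested genes were 27.5% higher and 30.4% lower. TNC, the matrix glycoprotein tenascin C, was 65.7, 243, 150.4, 255 and 170.5 early and 3812, 2867, 2245, 3354 and 3677 late, and the change was 4.28 ± 0.270 (SE) (limma adjusted p = 3.34e-06). The parental value of TNC, 154, lay among the early libraries. THBS1, thrombospondin 1, went from 34.9, 42.1, 28.9, 36.9 and 43.2 to 628, 578, 501, 438 and 1447, and SPRY1, a feedback inhibitor of receptor signalling, changed by 4.07. COL1A2, DUSP4, CCN1 and CDKN1A were the members that did not pass.

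Genes that the fusion activates moved less and in both directions. Of 36 tested members, 19 were lower and 7 higher (median -0.34). KCNAB3, a potassium channel subunit, fell from 582, 580.0, 557, 520.4 and 489 to 219, 216, 252, 275 and 187, PAX7, a muscle stem cell transcription factor, changed by -0.65, and STEAP1, a metalloreductase of the cell surface, by -0.57. The largest change in the list was a rise: CAV1, the coat protein of caveolae, went from 240.0, 626, 522, 496 and 414 to 5304, 7970.4, 4558, 10909 and 7482, a change of 3.98 ± 0.172 (SE) (limma adjusted p = 7.25e-07; chromosome 7, 116525009 to 116561185). The fusion partners and NR0B1 did not pass: FLI1 changed by 0.064 ± 0.0595 (SE), EWSR1 by -0.021 ± 0.0621 (SE) and NR0B1 by -0.11 ± 0.104 (SE) (limma adjusted p = 0.38, 0.791 and 0.386). These values count reads on the whole of each gene and do not separate the fusion transcript from the normal one.

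Most matrix genes rose. Of 30 tested members 26 were higher and 3 lower (median 1.46). Medians of the matrix list in DMSO R8, R9 and R10 were 0.83, 0.46 and 1.29. The summed level of the list was 85708 to 100500.0 at time point 1 and 131207 to 216467 at time point 8. After POSTN, the largest rises in the list were those of COL12A1, TNC and COL6A3, a collagen VI chain: COL6A3 went from 21.9, 79.7, 59.6, 80.2 and 37.5 to 1189, 1013, 647, 714 and 1545, and COL12A1 from 0.0176, 5.09, 0.00975, 0.0129 and 0.0144 to 76.5, 90.2, 31.1, 229.6 and 58.5. COL12A1 was at the lowest value of 4 of the 5 early libraries. DCN, the small proteoglycan decorin, was among the 3 lower members and went from 1309, 816, 1246, 1173 and 1327 to 721, 703, 620.3, 116 and 618, lowest in R6.

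Integrins and cadherins followed the same direction, with 13 of 18 higher and 2 lower (median 1.46). Their medians in DMSO R8, R9 and R10 were 1.49, 0.47 and 0.83. CDH13, a cadherin without a transmembrane domain, changed by 4.87, ITGA4 by 3.97 and ITGA11, a collagen receptor subunit, by 3.70. Contractile genes and targets of the mechanosensitive coactivator YAP had 13 of 19 members higher and 1 lower (median 0.61), led by ANKRD1 (4.31) and CCN2 (3.68). For this list the DMSO medians were 0.30, 0.81 and 1.01 in R8, R9 and R10. Transcription factors of mesenchymal transition had 7 of 11 higher and 0 lower (median 0.95; 0.65, -0.14 and 0.62 in DMSO R8, R9 and R10). Among them SNAI2 went from 111, 197, 142, 170.1 and 108 to 472, 781, 557, 891 and 914, and its parental value was 643.

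Markers of other cell types moved beside these groups. Epithelial markers summed to 168 to 221 at time point 1 and 355 to 596 at time point 8. Of 6 tested, 3 were higher and 2 lower. The rise lay in KRT8, KRT18 and ESRP1, while EPCAM, CDH1 and KRT19 did not exceed 2.72 in any of the 10 libraries. ESRP2 ranged from 16.2 to 34.5 early and 4.29 to 22.1 late, and KRT17 from 88.2 to 137 and 37.6 to 103. The median change of the list was 1.46 in treated lineages and 2.45, 4.50 and 1.20 in DMSO R8, R9 and R10. Of the muscle, fibroblast and endothelial markers tested, 5 of 9 were higher and 2 lower, with a sum of 2935 to 3768 early and 3208 to 5513 late, and MYOD1 was near 0 throughout. Blood cell markers summed to 155 to 197 early and 162 to 228 late, mostly from CD79A, with CD3E at or near 0. In these cultures a larger share of more mesenchymal cells and more RNA per cell cannot be told apart.

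The promoters of 3 genes whose rises lead these groups are shown because each holds a match to the motif of AP-1, a stress-induced factor, or of TEAD, the DNA-binding partner of YAP. Windows from RefSeq (GRCh38.p14) run 300 bases, from 250 before to 50 after the annotated start, and are written 5′ to 3′ on the gene's strand with the matched motif in capitals. POSTN lies at chr13:37598719-37599018 and TFPI2 at chr7:93890704-93891003, both on the minus strand, and each has 1 match to TGANTCA, the AP-1 motif. THBS1 lies at chr15:39580829-39581128 on the plus strand and has 1 match to GGAATG, the TEAD motif.
POSTN: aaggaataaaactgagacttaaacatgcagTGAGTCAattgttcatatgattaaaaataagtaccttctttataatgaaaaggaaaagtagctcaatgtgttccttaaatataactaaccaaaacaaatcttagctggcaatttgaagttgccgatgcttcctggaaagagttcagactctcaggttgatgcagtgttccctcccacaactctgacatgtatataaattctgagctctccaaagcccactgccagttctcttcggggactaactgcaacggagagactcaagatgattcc
TFPI2: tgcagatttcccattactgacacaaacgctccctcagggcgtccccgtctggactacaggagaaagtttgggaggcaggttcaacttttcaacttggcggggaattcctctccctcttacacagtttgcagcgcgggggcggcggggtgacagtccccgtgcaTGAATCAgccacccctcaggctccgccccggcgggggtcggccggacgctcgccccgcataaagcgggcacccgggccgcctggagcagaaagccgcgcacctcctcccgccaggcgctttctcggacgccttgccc
THBS1: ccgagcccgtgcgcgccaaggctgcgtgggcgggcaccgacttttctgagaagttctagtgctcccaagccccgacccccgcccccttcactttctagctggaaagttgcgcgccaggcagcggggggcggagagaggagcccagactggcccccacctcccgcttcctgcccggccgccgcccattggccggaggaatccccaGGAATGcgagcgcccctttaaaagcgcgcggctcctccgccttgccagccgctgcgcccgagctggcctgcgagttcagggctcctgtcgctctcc
Both strands were searched. The start is that of the gene in the annotation, and the 3 windows shown and 9504 of the 11324 matched windows have this extent. TGANTCA occurred in 4.63% of the 11324 tested genes with a window, in 8.63% of those that rose by at least 2 log2 units and in 7.40% of those that fell by at least 1 (4.48%, 8.78% and 7.36% over the 9504 windows of that extent). GGAATG occurred in 11%, 13.7% and 10.9% of the same sets (10.7%, 14.2% and 11.1%). A match describes the letters in the window and does not show that a factor bound there.

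More p53 targets were lower than higher at time point 8. Of 24 tested members 14 were lower and 2 higher (median -0.37). DDB2, a DNA damage sensor, was 815, 999, 821, 864 and 839 at time point 1 and 428, 258, 223, 603 and 339 at time point 8, a change of -1.32 ± 0.186 (SE) (limma adjusted p = 2.50e-04). ZMAT3, an RNA-binding p53 target, changed by -1.25 ± 0.245 (SE), PLK3 by -1.18 ± 0.184 (SE) and BAX, the mitochondrial pore former of apoptosis, by -0.94 ± 0.133 (SE). R6 had the highest late values of DDB2, ZMAT3, PLK3 and BAX among the 5 lineages. PMAIP1, which encodes the BH3-only protein NOXA, rose instead, from 1.71, 2.09, 7.54, 2.11 and 2.28 to 32, 43.3, 40.4, 27.4 and 59.

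CDKN1A, the inhibitor p21, was 858, 1387, 889, 960.1 and 782 early and 498, 827, 777, 1295 and 1319.6 late. Its groups overlapped, R6 and R7 rose while R2, R3 and R4 fell, and the change of -0.11 ± 0.204 (SE) did not pass (limma adjusted p = 0.672). MDM2, the ubiquitin ligase of p53, did not pass either (-0.098 ± 0.0752 (SE), limma adjusted p = 0.287). In DMSO lineages the same list changed by medians of -0.40 in R8, 1.81 in R9 and 0.72 in R10. R8 is the library pair whose early sample stood apart from R9 and R10. Without it the DMSO values are those of R9 and R10 alone, which started low and rose. CDKN1A values of R8, R9 and R10 were 1229, 53 and 71.2 at time point 1 and 935, 10116 and 1481 at time point 8. The treated change minus the DMSO change of CDKN1A was -3.95 (95% interval -6.90 to -0.99), which did not pass over all genes (limma adjusted p = 0.689).

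**Figure D2:**
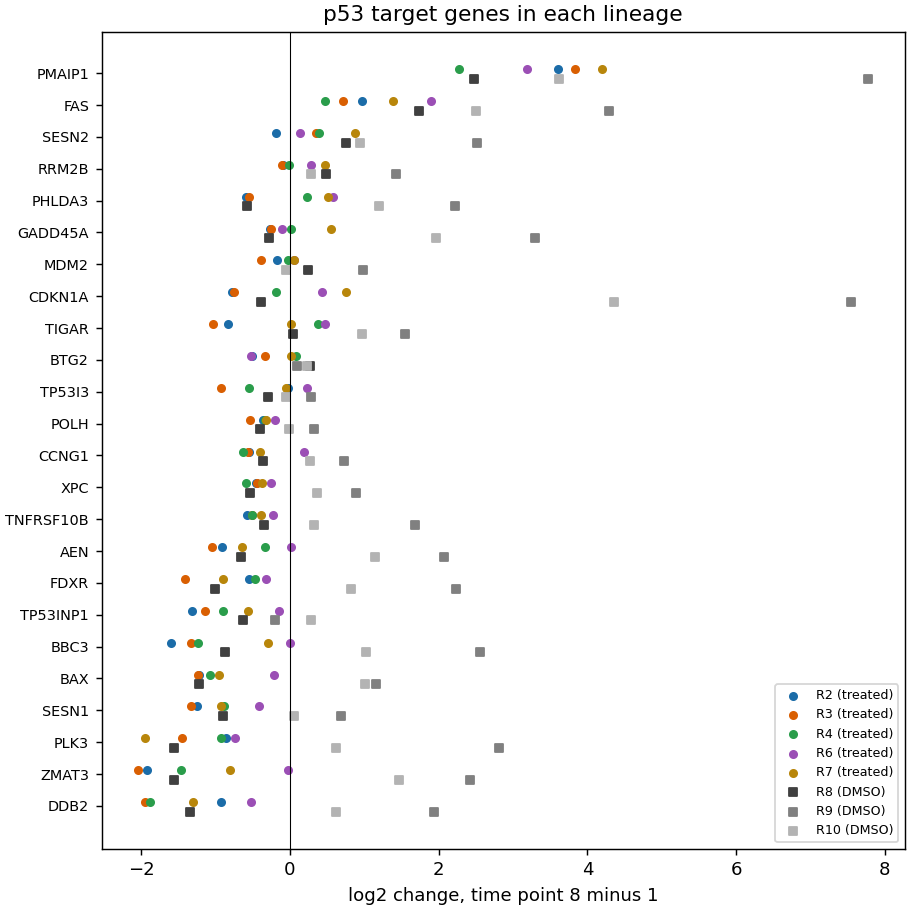
Log2 change from time point 1 to time point 8 for the 24 tested p53 target genes, with circles for the 5 treated lineages and squares for the 3 DMSO lineages. For DDB2, ZMAT3 and BAX the squares of R8 lie among the treated circles below 0 and those of R9 and R10 above 0.

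Homologous recombination genes were lower by small amounts, where 30.4% of all tested genes were lower. Of 35 homologous recombination and Fanconi anaemia genes 19 were lower and 1 higher (median -0.29). The DMSO medians were -0.31, -0.015 and -0.053 in R8, R9 and R10. FANCL, the ubiquitin ligase of the Fanconi pathway, went from 1134, 1172, 1072, 1052 and 1281 to 774, 486, 484, 866 and 571, a change of -0.88 ± 0.138 (SE), and FANCA and RAD52 changed by -0.76 and -0.74. Of 31 end joining, excision and mismatch repair genes 12 were lower and 3 higher (median -0.10), a share near that of all tested genes, with OGG1, a glycosylase for oxidized guanine, at -0.89. SLFN11, which blocks stressed replication forks and is known for sensitizing cells to DNA-damaging drugs, went from 4497, 4258, 4332, 4067 and 4166 to 3374, 2600.0, 3883, 3467 and 2997. All late values lay below all early ones, and the change was -0.40 ± 0.0809 (SE) (limma adjusted p = 0.00213).

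Proliferation genes were measured as lists by phase. Genes of G2/M and mitosis were higher in 20 of 30 members and lower in 2 (median 0.31), with HMMR at 1.01 and the kinase AURKA at 0.85. Medians of this list in DMSO R8, R9 and R10 were 0.18, 0.93 and 0.74. Genes of G1/S and replication had 8 of 31 higher and 7 lower (median 0.040), below the shares over all tested genes in both directions, and the polymerase subunits POLE and POLD1 changed by -0.59 and -0.52. The proliferation marker MKI67 was 9622, 10973, 9469, 10019.7 and 9504 early and 10636, 9158, 8882, 12040.1 and 9574 late and did not pass (0.013 ± 0.0814 (SE), limma adjusted p = 0.899). Replication-dependent histone genes, whose transcripts lack poly(A) tails and move with how RNA is selected, had 18 of 37 lower and 3 higher (median -0.18).

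Genes of the drugs' own targets and of drug transport were measured as lists, beside 27.5% of all tested genes higher and 30.4% lower. Of 21 topoisomerase, tubulin and related genes 12 were higher and 4 lower (median 0.20). TOP2A, the topoisomerase that doxorubicin and etoposide trap, was 7776, 8444, 7856, 7618 and 7210.5 early and 8444, 8806, 7329, 8585 and 7272 late and did not pass (0.053 ± 0.0629 (SE), limma adjusted p = 0.492). Tubulin chains of low early level rose most: TUBB2B from 1.18, 1.60, 6.06, 1.60 and 5.50 to 33.9, 39.7, 22.2, 51.8 and 34.9, and TUBA4A from 95.4, 89.3, 81.4, 91.8 and 83.9 to 407, 668, 593, 371 and 606. Of 16 tested transporters 8 were lower and 5 higher (median -0.45). SLC22A16, a carnitine transporter that also takes up doxorubicin, fell from 90.2, 53.5, 91.9, 74.7 and 80.8 to 23.6, 6.05, 11.1, 5.38 and 7.73, and the efflux pump ABCC5 from 1919, 1736, 1843, 1854 and 1827 to 830.1, 741, 727, 872 and 799. ABCC3, another efflux pump, rose (1.99). The efflux pump ABCB1 had a mean under 10 and was not tested. ALDH1A1, an aldehyde dehydrogenase, a family that inactivates cyclophosphamide metabolites, went from 23, 28.6, 26.3, 17.6 and 26.1 to 293, 120.3, 199, 196 and 654.

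Of the BCL2 and IAP family regulators of apoptosis, 10 of 18 were higher and 6 lower (median 0.30). Over all tested genes 27.5% were higher and 30.4% lower. BOK, a BAX relative, changed by 2.53. HRK, a BH3-only activator of apoptosis, was 111, 85.1, 108, 70.8 and 124 early and 243, 995, 819, 73.3 and 476 late, with R3 the highest late library and R6 the lowest. NRF2 target genes had 8 of 15 higher and 2 lower (median 0.22), and aldehyde, carbonyl and glutathione enzymes 11 of 22 higher and 7 lower (median 0.17). Genes of ATF4 and the unfolded protein response had 14 of 29 higher and 2 lower (median 0.29). TRIB3, a pseudokinase induced by ATF4, went from 61.2, 49.6, 71.9, 38 and 57.4 to 485, 1012, 1080.1, 106 and 1026, lowest in R6. Hypoxia and glycolysis genes had 15 of 27 higher and 0 lower (median 0.38), with the glycolytic enzyme HK1 at 3.62 and VEGFA at 1.38. Cholesterol synthesis genes had 8 of 24 lower and 1 higher (median -0.083), and the share lower was near that of all tested genes.

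Signalling and immune genes included many with low early values. Their counts stand beside 27.5% of all tested genes higher and 30.4% lower. Receptor tyrosine kinases and ligands had 16 of 29 higher and 6 lower (median 0.46), with MET going from 0.0176, 1.09, 0.00975, 1.09 and 0.0144 to 22.8, 27.9, 46.7, 16.8 and 49.4 and FLT1 changing by 3.89. Their medians in DMSO R8, R9 and R10 were 0.57, 0.41 and 0.35. Activin and TGF-beta genes had 12 of 20 higher and 4 lower (median 0.48), led by INHBA, the activin A subunit (4.29). WNT pathway genes had 7 of 21 higher and 5 lower (median 0.036), not far from the shares over all tested genes. Interferon-stimulated genes had 13 of 24 higher and 8 lower (median 0.50), and IFIH1, the RNA sensor MDA5, went from 11, 12.3, 14.5, 9.09 and 10.5 to 102, 93.3, 142, 22.5 and 135, lowest in R6. MHC class I genes had 10 of 17 higher and 1 lower (median 0.29), with HLA-B going from 2.78, 1.60, 1.01, 2.63 and 1.15 to 37.3, 64.1, 48, 36.5 and 72.6. HLA genes are near copies of one another, so their values are uncertain.

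The remaining lists were smaller or mixed, where 27.5% of all tested genes were higher and 30.4% lower. NF-kB and secreted inflammatory genes had 7 of 10 tested members higher and 2 lower (median 0.43), AP-1 and immediate early genes 9 of 22 higher and 5 lower (median 0.14), and neural and neuroendocrine genes 6 of 14 higher and 5 lower (median 0.29). Of 8 Ewing sarcoma markers tested, 2 were lower and 0 higher. MYCN was low and changed by -1.63 ± 0.462 (SE), and MYC changed by 0.20 ± 0.0666 (SE) (limma adjusted p = 0.0126 and 0.0277).

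Translation and mitochondrial genes changed as blocks. Ribosomal protein genes were higher in 65 of 71 members and lower in 0 (median 0.45), with RPS10 going from 180.0, 161, 197, 208 and 199.9 to 542, 554, 659, 492 and 487. In R6 the median was 0.15, against 0.39 to 0.61 in the other treated lineages, and in DMSO lineages R8, R9 and R10 it was 0.62, -0.15 and -0.082. All 13 mitochondrially encoded genes were lower (median -1.21), by lineage medians from -0.27 in R3 to -1.86 in R6. In DMSO R8, R9 and R10 the medians of these genes were -1.68, -1.11 and -0.094. COX1 was at the top value of the treated columns, 114345, in all 5 early libraries, so its early level was capped by the normalization.

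**Figure D3:**
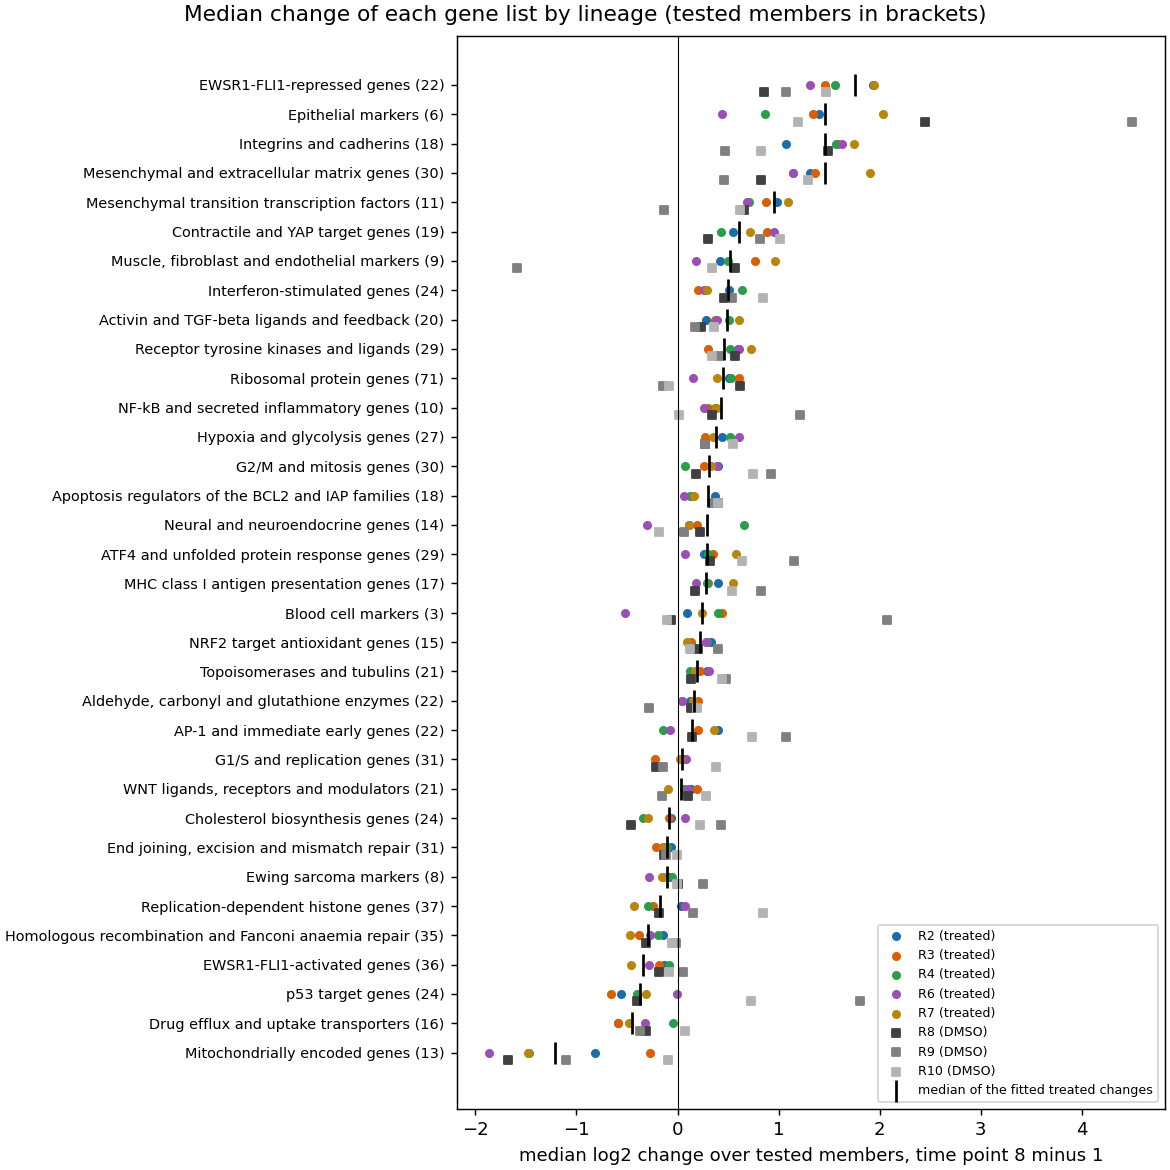
Median log2 change over the tested members of each gene list, with circles for the 5 treated lineages, squares for the 3 DMSO lineages and a bar for the median of the fitted changes. EWSR1-FLI1-repressed genes (median 1.75), the 6 tested epithelial markers (1.46), integrins and cadherins (1.46) and matrix genes (1.46) lie farthest to the right by the bar and mitochondrially encoded genes (-1.21) farthest to the left.

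In no single gene could the change in treated lineages be told from that in DMSO lineages. The treated change minus the DMSO change passed in 0 of 14518 genes (0%) in limma with Benjamini-Hochberg adjustment, where 973 had an unadjusted p under 0.05 and the smallest adjusted p was 0.689. Leaving out R8 gave 215 genes (72 with a higher and 143 with a lower change in treated lineages). Without R9 or R10 it gave 0 genes in each case, with 439 and 1278 genes at an unadjusted p under 0.05. With all lineages, the 973 genes included 20 of 24 tested p53 targets, 10 of 30 matrix genes and 10 of 37 histone genes. They included 1 of 35 homologous recombination genes and 0 of 31 G1/S genes. Members of a list are not independent, and these counts were not tested. DMSO lineages alone changed in 3754 genes (25.9%) between the same time points, and in 4266 without R8. The interval of the difference was wide: its median 95% half-width was 0.505 over all tested genes, and of 576 genes called with a change of at least 2 in size only 13 (2.26%) had an interval within 1 log2 unit of 0. The absence of calls therefore does not show that the arms changed alike. Treated and DMSO columns appear to have been normalized separately, which affects levels set across the arms.

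Of the 3991 genes higher in treated lineages, 2285 (57.3%, against 21.3% of all tested) rose in all 3 DMSO lineages and 8 fell in all 3. Of the 4407 lower genes, 2837 (64.4%, against 26.0%) fell in all 3 and 13 rose in all 3. Without R8, 2469 of the higher genes (61.9%, against 31.1% of all tested) rose in both R9 and R10, and 3108 of the lower genes (70.5%, against 39.2%) fell in both. Across 14518 genes the treated and DMSO mean changes correlated at r = 0.827. Against single DMSO lineages r was 0.832 for R8, 0.519 for R9 and 0.698 for R10. Genes are not independent replicates, and the points share the line of origin and the time points. CAV1 rose in DMSO lineages from 735, 355 and 306 to 5499, 5982 and 4203, and the difference of the changes was 0.39 (95% interval -0.36 to 1.15). POSTN rose from 0.0262, 0.0167 and 1.10 to 269.8, 3.64 and 25.8, with R8 in the treated range and R9 and R10 below it, and the difference was 3.15 (95% interval 0.32 to 5.99) (limma adjusted p = 0.689).

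The smallest p-values for the difference, none of which passed, belonged on the higher side to LRRC32, COL6A3, COL18A1 and BICC1. LRRC32, the surface anchor of latent TGF-beta, went from 1.18, 0.583, 1.01, 1.09 and 0.0144 to 67.5, 35.1, 23.3, 64 and 70.1 in treated lineages and from 8.16, 2.34 and 0.0144 to 18.1, 0.838 and 2.31 in R8, R9 and R10, a difference of 4.20 (95% interval 2.49 to 5.91). On the lower side they belonged to SRCIN1, NEU4, CLDN16 and ZNF219. SRCIN1, an inhibitor of SRC, went from 118, 97.6, 97.1, 97.4 and 132 to 34.8, 30.6, 32.3, 49.4 and 28.6 in treated and from 94.5, 107 and 88.3 to 96.8, 145 and 94.1 in DMSO lineages, a difference of -1.80 (95% interval -2.48 to -1.12). All 8 had a limma adjusted p of 0.689 with Benjamini-Hochberg adjustment. In LRRC32 and SRCIN1 every treated change lay beyond every DMSO change. These genes were picked for a small p of this same difference, so the separation is a description only.

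**Figure D4:**
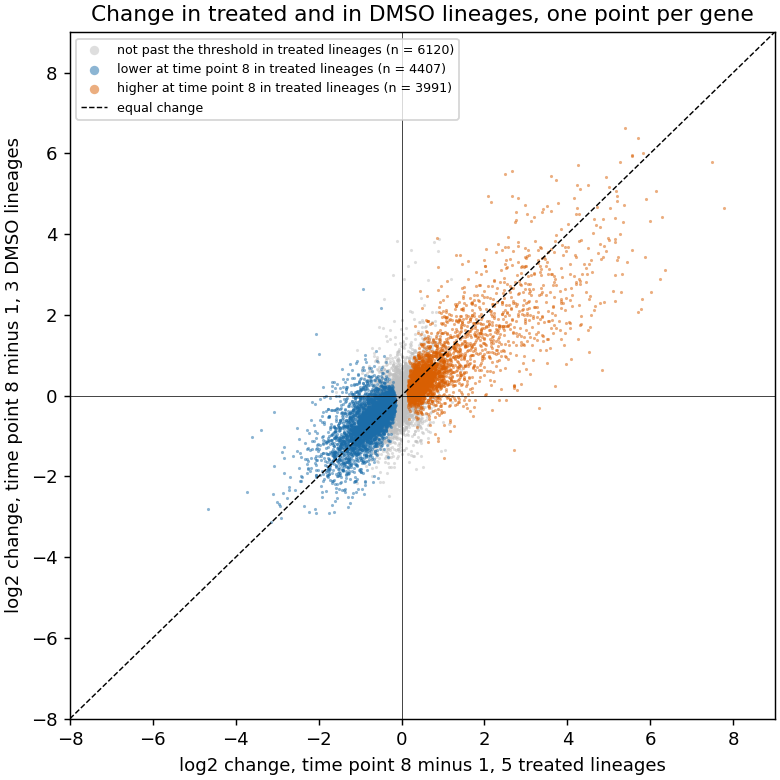
Log2 change from time point 1 to 8 in the 5 treated lineages (x axis) against that in the 3 DMSO lineages (y axis), 1 point per tested gene, coloured by the call in treated lineages. The 3991 higher and 4407 lower genes mostly lie in the quadrants where both arms moved the same way (r = 0.827 across genes).

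Many genes of the treated lineages had already changed by time point 4, after 2 courses of each regimen. In the same 5 lineages 7224 genes (49.8%) passed between time points 1 and 4, and 0 passed between 4 and 8 in limma with Benjamini-Hochberg adjustment (0%), where 1430 had an unadjusted p under 0.05 and the smallest adjusted p was 0.237. Without R6, 27 genes passed between 4 and 8. Time points 4 and 8 both follow EC, so the last regimen does not differ between them. These comparisons share libraries with the change from 1 to 8, and their values are given side by side only. The genes higher at time point 8 had a median change of 0.44 from 1 to 4 and 0.086 from 4 to 8, and the lower genes -0.53 and -0.11. Whether DMSO lineages changed alike from 1 to 4 was not tested.

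Single genes took different courses. CAV1 was already at 4726, 5554, 11102, 17335 and 12040.1 at time point 4, a change of 4.37 from time point 1 and -0.39 from there to time point 8. DMSO lineages R8 and R9 also had high CAV1 at time point 4, 7523 and 6210, against 735 and 355 at time point 1. At time point 2 CAV1 was at 324, 134 and 453 in DMSO R8, R9 and R10, against 3200.1 in the parental line. For CAV1 the early libraries of both arms thus lay below the parental level. POSTN was 110.2, 139, 47.8, 476 and 430.3 at time point 4, and changed by 6.88 and 0.91. WNT3 stood at 15.5, 6.10, 29.9, 4.82 and 11 and changed by -3.26 and -1.42. RPS10 changed by 0.61 up to time point 4 and by 0.91 after it, and the ribosomal protein list had medians of 0.10 and 0.35. The interferon-stimulated list had medians of -0.067 up to time point 4 and 0.32 after it.

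**Figure D5:**
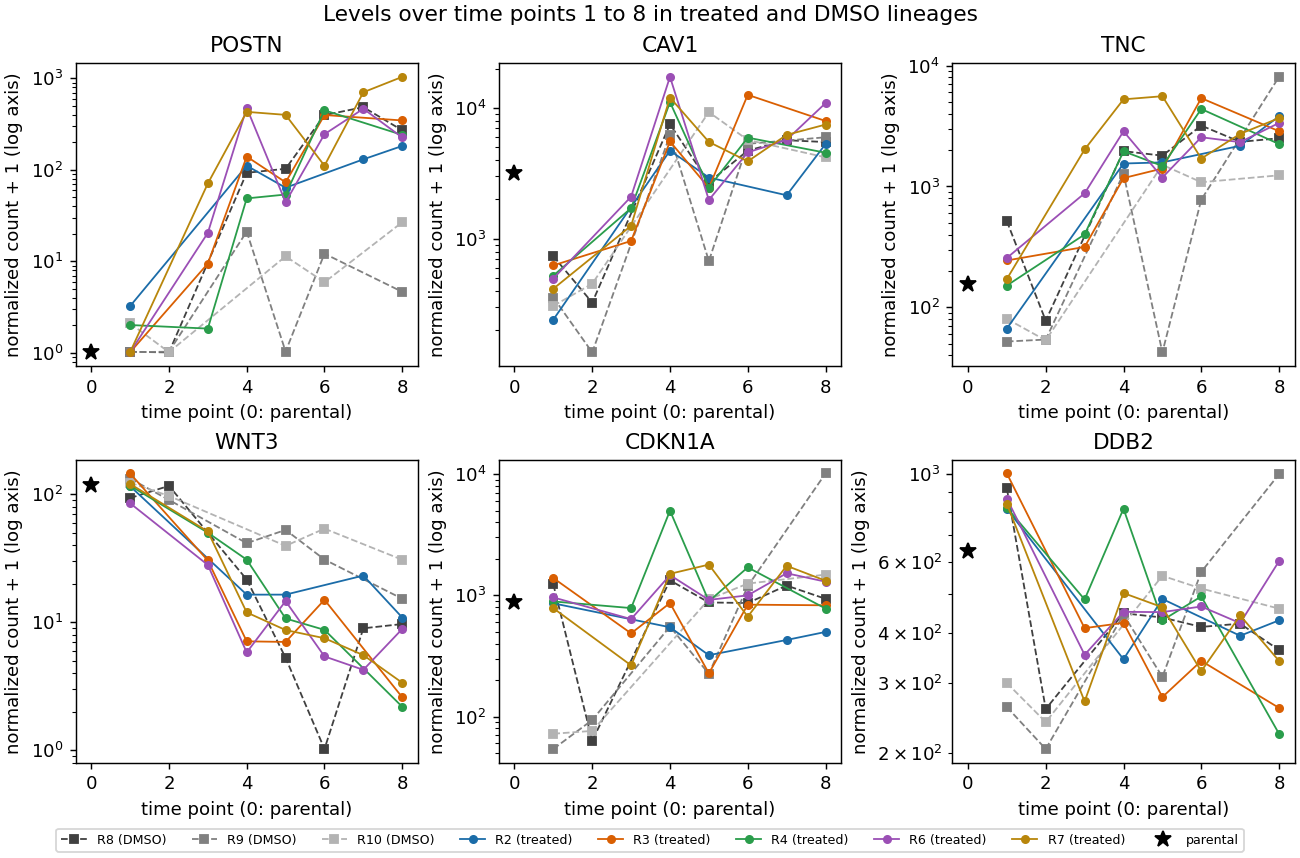
Normalized count plus 1 on a log axis against time point for POSTN, CAV1, TNC, WNT3, CDKN1A and DDB2, with circles for the 5 treated lineages, squares for the 3 DMSO lineages and a star for the parental library. For POSTN, CAV1 and TNC the 5 treated values of time point 4 lie above all 5 of time point 1, and CDKN1A in R9 and R10 starts near 53 and 71.2 while R8 starts at 1229.

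A comparison after the same regimen came from time points 7 and 1, both after VDC, in lineages R1, R2, R6 and R7. There 4304 genes passed (29.6%) in limma with Benjamini-Hochberg adjustment. Each lineage weighed on that count: it was 6408 without R1, 2198 without R2, 1108 without R6 and 996 without R7. CAV1 changed by 2.84, POSTN by 7.93, TNC by 4.33 and WNT3 by -3.39 between these time points, in the same direction as between 1 and 8. These changes are from the fit that includes R1.

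By mean distance over genes, the 5 lineages lay farther from the parental library and from each other at time point 8 than at time point 1. The distance of a library from the parental one, as the root mean square of log2 differences over tested genes, averaged 0.716 ± 0.0369 (SD, 5 lineages) early and 0.901 ± 0.0813 (SD, 5 lineages) late. It grew in all 5 lineages, from 0.0619 in R6 to 0.273 in R3, by 0.185 on average (exact sign-flip permutation p = 0.0625, 2-sided, the smallest that 5 pairs allow). The mean difference between lineages was 0.328 at time point 1 and 0.526 at time point 8. For 60.1% of the higher and 59.0% of the lower genes the parental value lay between the means of the 2 time points. It lay beyond the mean of time point 8 for 22% and 22.7%. In log2 units the parental value was nearer time point 1 for 43.4% of the higher and 52.8% of the lower genes. The parental column shares its total with the DMSO columns and not with the treated ones. The part of this in the distances was not tested.

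The 5 lineages shared most of their change. Across genes, the changes of any pair of lineages correlated at r = 0.714 to 0.861 over 14518 genes, and every pair with R6 lay at or below 0.777. R6 had the smallest change over all genes (root mean square 0.893) and R7 the largest (1.10). Changes of at least 2 in size in 1 lineage and under 1 in the other 4 were rare: 8 genes in R2, 16 in R3, 8 in R4, 19 in R6 and 16 in R7. They include EGFL6, a secreted protein with EGF repeats, which reached 150.2 in R7 at time point 8 and was at or near 0 in the other 9 libraries. PRG4, a joint lubricant proteoglycan, went from 9.39, 19.2, 14, 10.7 and 11.7 to 12.4, 22.8, 82.3, 12.1 and 15.6, by far the most in R4. These genes were chosen for this pattern, so their values are a description.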

How the data were processed

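Per the labels' protocols, RNA was prepared from CHLA-9 cultures with the Qiagen AllPrep kit and its reads were mapped and counted in STAR. Also named in the submitters' processing notes are featureCounts and the build GRCh38 (versions not given in the sources used here). The signal deposited by the authors is a quantile-normalized count per gene. All treated columns have the same total, and all DMSO and parental columns have another. Depth is unknown, so no counting interval is given. Groups came from the labels, and pairs from the lineage number, which marks 1 culture followed over time. Same-lineage deviations correlated at only -0.080 to 0.081.

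Values were tested as log2(value + 1) for 14518 genes with a mean of at least 10, with limma 3.58.1 (trend, lineage as a block) in R 4.3.3 (package data.table, version 1.17.8), and called at a Benjamini-Hochberg adjusted p under 0.05. The interaction with arm used 16 libraries, those of 5 treated and 3 DMSO lineages. Figures used matplotlib 3.10.9 in Python 3.11.15. On simulated data over 14518 genes, a log2 change of 1 between time points 1 and 8 was recovered for 68.7% of 67 genes, a difference of 1 between arms for 47.8%, and a change of 1 between 4 and 8 for 62.7%. False calls numbered 11, 5 and 7. Besides these, only 67 genes changed by 0.5 and 66 by 2. Far more genes were called between time points 1 and 8 in the data, so the rates need not hold there.

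The comparison, the 34 gene lists (831 genes) and the naming rule were chosen with earlier results of these data known. The rule names the 12 largest protein-coding and 2 largest non-coding changes in each direction with all 5 lineages agreeing, up to 4 called members per list, the 4 smallest p-values in each direction for the difference between arms, 2 genes per lineage that changed there alone, and 11 genes always. Not every gene the rule names is reported here. Alternatives covered the pseudocount, filters, centring, a robust fit, the block, added unpaired libraries and each lineage left out.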

Additional observations from a re-analysis of the deposited data

Results flagged for a closer look

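The 5 log2 changes of each of the 177 genes picked by the naming rule were checked for a lineage set apart by a gap that took up most of the range (Dixon's 95% limit for 5 values). That held for 15 genes, where chance alone flags about 1 in 20. The genes changed in 1 lineage only were picked for such a pattern, and 6 of the 15 are of that kind: GNAZ in R3 (2.85), PRG4 in R4 (2.47), C9orf43 in R6 (-3.25), SPTBN4 in R6 (-2.90), EGFL6 in R7 (7.22) and SMIM32 in R7 (-2.63).

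The other flagged genes were about as many as chance alone gives, so their values are a description only. R6 was the separate lineage in 5 of them. MIR34AHG changed by -1.38 in R6 against a median of -4.16 in the other lineages, BAX by -0.21 against -1.14 and ESRP1 by 0.94 against 3.96, all smaller changes. ROR2 changed by 7.17 in R6 against 5.47, and DCN by -3.32 against -0.93, both larger ones. In R4, EGFR changed by 4.42 against a median of 8.06, and R4 alone had EGFR above its lowest value at time point 1. R7 had larger rises of ITGA4 (5.50 against 3.60) and WNT5B (5.43 against 2.68), and R3 was alone in a rise of LOXHD1 (0.93 against -2.71). The reasons were not tested.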

How the results depend on the processing

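The 8398 genes called between time points 1 and 8 became 2102 when a log2 change of at least 1 was also required, and ranged from 7035 to 8298 with 1 lineage left out. Without the replicate block it was 8694, of which 8254 were shared with the paired fit. The difference between arms gave 0 to 215 genes over the fits that leave out 1 lineage and 0 in the other settings, including no replicate block. DMSO lineages alone gave 2515 to 4266 with 1 left out and 4461 without the replicate block. Time points 7 and 1 gave 996 to 6408 with 1 lineage left out and 3750 without the replicate block. Time points 8 and 4 gave 0 to 27 with 1 left out and 1 without the replicate block. Time points 4 and 1, added after seeing the data, gave 5731 to 6669 and 7678. The growth in distance from the parental library, 0.185, ranged from 0.163 to 0.216 with 1 lineage left out, where 4 pairs allow no exact p under 0.125, and without the replicate block had an exact permutation p of 0.00794 (252 splits). The growth in distance between lineages ranged from 0.140 to 0.223.

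Of the 177 genes picked by the naming rule, 156 kept direction and call under every alternative run. Over 2524 refits of single genes there were 25 lost calls, 6 gained ones and 11 changes of sign, all in genes that had not passed. With 1 lineage left out, GNAZ ranged from -0.31 (without R3) to 0.56, C9orf43 from -0.91 to 0.0017 (without R6), EGFL6 from -0.0091 (without R7) to 1.80, CDKN1A from -0.32 to 0.062 (without R2; 0.052 without R3), EWSR1 from -0.055 to 0.011 (without R4; 0.0033 without R7) and MKI67 from -0.049 (without R6; -0.019 without R2) to 0.082. With the 12 unpaired libraries MKI67 turned to -0.19 and TOP2A to -0.082. MYCN lost its call without R3 (-1.32) and MYC without R3 (0.15) or R4 (0.17). Only 5 lineages from 1 cell line and 3 DMSO lineages limit the precision, and depth is unknown.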

Other observations

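WNT3, CRHR1 and SPPL2C, among the 12 largest falls, lie near each other on chromosome 17, and the interval from 45784320 to 46818692 (GRCh38.p14) that spans them was examined after their values were seen. Beside these 3 genes, for which the interval was chosen, it holds 9 tested genes, of which 7 were lower at time point 8 and 0 higher in limma with Benjamini-Hochberg adjustment. Of all tested genes 30.4% were lower, and of those on chromosome 17 34.4%. MAPT, the microtubule-binding protein tau, changed by -0.49 ± 0.090 (SE, log2), its intronic transcript MAPT-IT1 by -1.76 and KANSL1, a subunit of a histone acetyltransferase complex, by -0.39. NSF, a membrane fusion ATPase, changed by 0.14 and did not pass. In DMSO lineages, R8 included, WNT3 changed by -2.80, CRHR1 by -1.75, SPPL2C by -1.54 and MAPT by -0.059. Several of these genes overlap or have near copies, and reads may be shared among them.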
